A study of Mus musculus with 4 samples.

Results

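The enzymes and complexes that write, erase and read repressive and active marks on histones were followed as 1 set of 43 genes. The samples were cultures labelled as mouse spermatogonial stem cells, with FGF2 withdrawn and an FGF receptor inhibitor added, against control cultures. The set was chosen by name: a gene belonged to it when a non-control probe of the array carried its symbol or an older symbol. Where a gene had several probes, the brightest, by the mean of both channels over the 4 arrays, stood for it. All 43 members had a probe that passed the filter on dim probes, on 4 of 4 arrays in both channels, among 18454 genes tested in all. Membership by name used no measured value, though the list of names was drawn up with earlier results of these data known. The choice of probe used the measured brightness.

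The study asked which genes depend on FGF2 in spermatogonial stem cells, the germ cells from which sperm production is renewed. Treated cultures had FGF2 withdrawn and the FGF receptor inhibitor SU5402 added for 12 h, the condition the labels call -F+S. Control cultures stayed in the normal medium, which is free of serum and holds FGF2 at 5 ng/ml next to GDNF at 40 ng/ml. The labels give no time for them. Both came from C57/BL6 x DBA/2 F1 mice at day 5. Withdrawal and inhibitor were applied together, so their effects cannot be told apart here, and an action of SU5402 on other kinases was not tested. Each of 4 two-colour Agilent arrays held 1 treated sample in green (Cy3) and 1 control sample in red (Cy5). The design text calls the 4 samples of each kind biological replicates. The dyes were never swapped, so a gene-specific dye effect and the treatment cannot be told apart. The labels do not say whether other cells shared the culture dish.

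Polycomb proteins keep developmental genes silent. Polycomb repressive complex 2 (PRC2) methylates lysine 27 of histone H3, and Polycomb repressive complex 1 (PRC1) ubiquitinates histone H2A and compacts chromatin. Trithorax proteins counter them by methylating other lysines of histone H3. Methylation of lysine 9 of histone H3 marks heterochromatin and silenced retroelements, histone deacetylases remove and acetyltransferases add acetyl groups, and arginine methyltransferases modify histones and many other proteins. In the male germ line these systems keep somatic genes and transposons silent and help to maintain the stem cell pool.

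Cbx6, Hdac9 and Phc3 were the members with the largest rises in treated cultures, and Setdb1, Suv39h1 and Prmt5 those with the largest falls. Of the 43 members, 10 rose and 19 fell (limma, Benjamini-Hochberg adjusted p under 0.05 over all genes), and the other 14 did not pass the test. Thus 23.3% of the members rose, against 37.5% of all genes tested, and 44.2% of the members fell, against 30.9% of all genes. In either direction 67.4% of the members were called, against 68.4% of all genes, so a call as such was no more frequent among them. With the scanner's own processed signals in place of the loess-normalized ones, 5 of 43 members rose and 22 fell. Of all 18454 genes, 5598 rose and 7855 fell with these signals. Rises then made up 41.6% of the called genes, against 54.8% of those called after loess. The members' median log2 ratio of treated over control was -0.16, against 0.02 over all genes. At least 2-fold rises were called for 3 members, where 11.7% of all genes had one, and no member fell 2-fold, where 1.66% of all genes did. Members had the same sign on all 4 arrays in 29 cases of 43 (67.4%), against 73.5% of all genes. In the same samples 13 of 16 replication and proliferation genes and 6 of 9 germ cell markers fell, and 10 of 10 Sertoli cell markers rose. Among the Sertoli markers, Fshr passed the dim-probe filter only through the treated samples. The part of such shifts in the members' ratios was not tested.

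**Figure D1:**
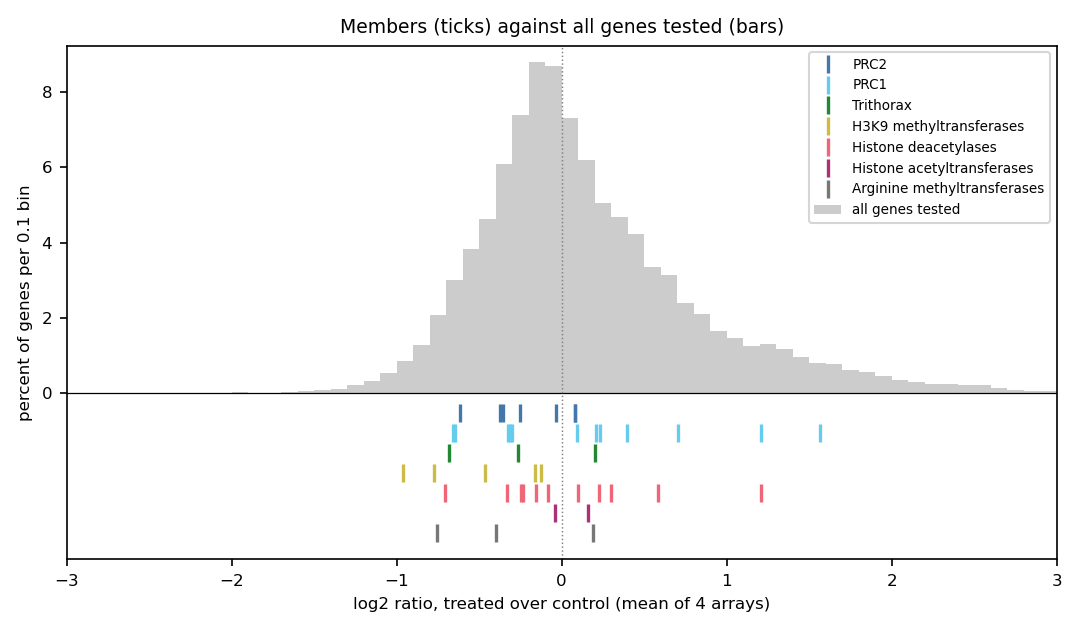
Distribution of the log2 ratio of treated over control for all 18454 genes tested (grey bars, percent of genes in each bin of 0.1; x axis cut at -3 and 3) and for the 43 members (coloured ticks, 1 row per group). The members run from -0.96 (Setdb1) to 1.57 (Cbx6).

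The sequences below are shown to set Cbx6, the member with the largest rise, beside members whose probes gave different calls. Why probes of a gene differed was not tested. Each is a 60-base probe, 5′ to 3′ as the scanner files give it, with mm9 coordinates and strand from the same files. The files do not say in which exon or untranslated region a probe lies, and no letters are in capitals because no motif is marked. For Cbx6 all 3 probes called a rise, while for Phc3, Hdac9 and Cbx8 1 of the 2 probes that passed the filter did. Phc3 had 3 probes in all and Hdac9 had 4. Those not printed were well above background on 0 of 4 arrays in either channel, and were not tested.
Cbx6 brightest probe, chr15:79656576-79656635 (- strand), log2 ratio 1.57: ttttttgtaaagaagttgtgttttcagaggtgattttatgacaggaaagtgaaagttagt
Cbx6 second probe, chr15:79654621-79654680 (- strand), log2 ratio 1.27: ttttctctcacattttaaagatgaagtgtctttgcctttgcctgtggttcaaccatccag
Cbx6 dimmest probe, chr15:79657259-79657318 (- strand), log2 ratio 0.99: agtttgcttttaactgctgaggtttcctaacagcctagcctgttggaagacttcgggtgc
Phc3 brightest probe, chr3:30799180-30799239 (- strand), log2 ratio 1.21: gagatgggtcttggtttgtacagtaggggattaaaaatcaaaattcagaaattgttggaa
Phc3 second probe, chr3:30805823-30805882 (- strand), log2 ratio -0.025: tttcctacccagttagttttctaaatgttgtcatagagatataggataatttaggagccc
Hdac9 brightest probe, chr12:35056507-35056566 (- strand), log2 ratio 1.21: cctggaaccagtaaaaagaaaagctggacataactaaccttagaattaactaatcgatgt
Hdac9 second probe, chr12:35074257-35074316 (- strand), log2 ratio 0.17: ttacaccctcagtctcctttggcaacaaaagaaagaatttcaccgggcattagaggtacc
Cbx8 brightest probe, chr11:118899777-118899836 (- strand), log2 ratio 0.21: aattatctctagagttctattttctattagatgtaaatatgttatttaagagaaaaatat
Cbx8 second probe, chr11:118897653-118897712 (- strand), log2 ratio 0.97: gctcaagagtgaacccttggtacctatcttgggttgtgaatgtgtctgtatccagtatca

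The brightest Phc3 probe was designed on a cDNA clone and starts 6643 bases closer to the 3′ side of the gene than the RefSeq-derived probe, which did not pass the test. The brightest Hdac9 probe starts 17750 bases closer to the 3′ side than its partner. The Hdac9 probes not printed, at chr12:34735842-34735901 and chr12:34732447-34732478, lie further still to the 3′ side and failed the filter. What transcript the Hdac9 probes read was not tested. For Cbx8 the order is turned: the probe with the larger ratio was designed on a cDNA clone and starts 2124 bases nearer the 3′ side than the brightest probe. Where a result below holds on 1 probe only, it is a result on that probe. Some second probes were dim. Their mean log2 levels in treated and control cultures were 7.70 and 7.72 for Phc3 and 7.48 and 7.31 for Hdac9. Cbx2 (7.47 and 7.67), Eed (7.26 and 7.44) and Ep300 (7.88 and 8.14) were similar, while Rnf2 had 11.72 and 11.75. The third Phc3 probe, which failed the filter, had 6.30 and 6.24. The part of low signal in these ratios was not tested.

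In PRC2 no member rose and 4 of 7 fell: both catalytic subunits, Ezh1 and Ezh2, the subunit that binds the finished mark, Eed, and the cofactor Jarid2. The falls were 57.1% of the group, where 30.9% of all genes fell, and its median log2 ratio was -0.25. Levels are given as log2 normalized intensity for arrays 1 to 4 in order. Levels of different genes come from different probes and are not comparable.

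Ezh1, a PRC2 methyltransferase found also in resting cells, had a level of 10.20, 10.32, 10.29 and 10.23 in treated cultures, against 10.66, 10.52, 10.81 and 10.49 in control cultures. Every treated sample lay below every control sample, with a log2 ratio of -0.36 (SE 0.078, limma adjusted p = 0.00286). Ezh2, the methyltransferase of dividing cells, had 12.62, 12.87, 12.53 and 12.63 in treated cultures, against 12.83, 13.17, 13.04 and 12.61 in control cultures. The ranges of the groups overlapped, and array 4 showed almost no difference. Its log2 ratio was -0.25 (SE 0.091, limma adjusted p = 0.0326), a call that was lost without array 1, 2 or 3. The largest of those adjusted p-values, without array 3, was 0.141, at a log2 ratio of -0.17.

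Eed, which binds trimethylated lysine 27 and activates the enzyme, had 14.02, 14.11, 13.96 and 14.11 in treated cultures, against 14.50, 14.54, 14.36 and 14.28 in control cultures. All treated samples lay below all controls, with a log2 ratio of -0.37 (SE 0.075, limma adjusted p = 0.00185). Jarid2, which helps bring PRC2 to its target genes, had 14.46, 14.36, 14.21 and 14.22 in treated cultures, against 14.95, 14.88, 14.77 and 15.11 in control cultures. Its groups were also separate, and at -0.62 (SE 0.084, limma adjusted p = 0.000147) its log2 ratio was the most negative of the PRC2 group, with array 4 furthest down.

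Suz12, the scaffold without which PRC2 is unstable, had 13.73, 13.60, 13.69 and 13.60 in treated cultures, against 13.61, 13.82, 13.55 and 13.33 in control cultures. The groups overlapped and the sign differed between arrays. It had a log2 ratio of 0.08 (SE 0.088, limma adjusted p = 0.45), with a 95% interval from -0.12 to 0.28. The histone-binding proteins Rbbp4 and Rbbp7, which PRC2 shares with deacetylase complexes, did not pass the test either. Their log2 ratios were -0.03 (95% interval -0.22 to 0.15) for Rbbp4 and 0.08 (95% interval -0.12 to 0.28) for Rbbp7.

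**Figure D2:**
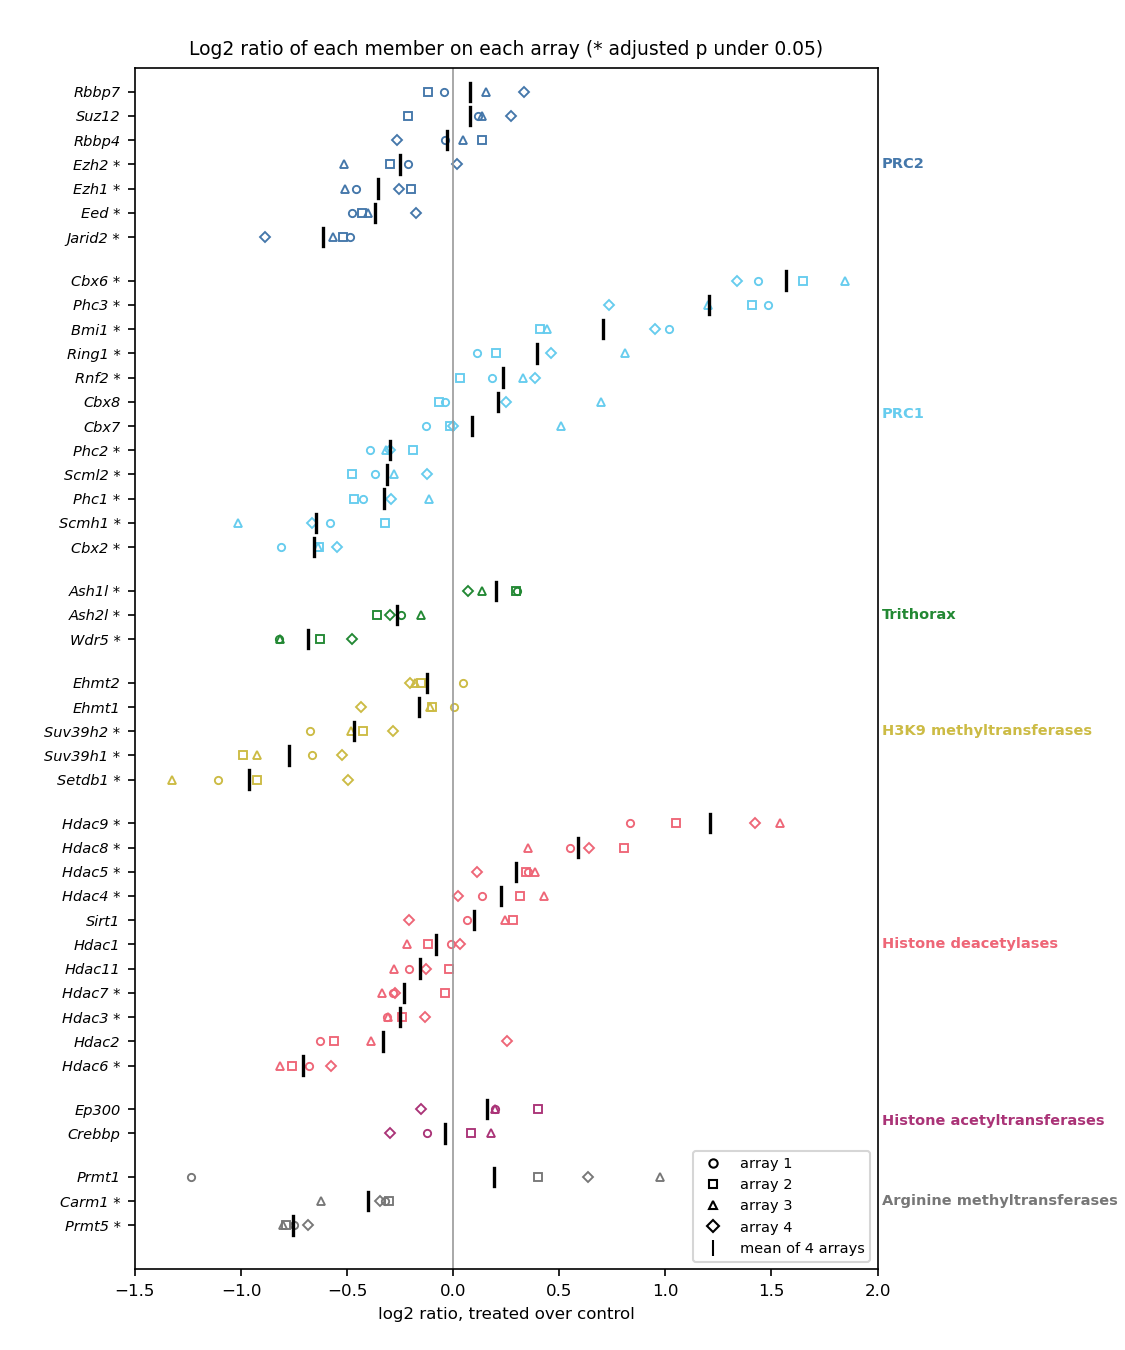
Log2 ratio of treated over control for every member on each of the 4 arrays (open symbols), grouped by complex or enzyme family, with the mean as a black bar. Asterisks mark the 29 members with an adjusted p under 0.05. Prmt1 has the widest spread, from -1.24 on array 1 to 0.97 on array 3.

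PRC1 members went both ways: 5 of 12 rose, 5 fell and 2 did not pass the test. Rises and falls were 41.7% each, against 37.5% and 30.9% of all genes. The ubiquitin ligases Ring1 and Rnf2 and their partner Bmi1 were among those that rose, together with Cbx6 and Phc3. Those that fell were Cbx2, Phc1, Phc2, Scmh1 and Scml2. The group thus contained the member with the largest rise of the whole set, Cbx6, beside falls that ran from -0.66 for Cbx2 to -0.30 for Phc2.

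Bmi1, which stimulates the ligase and is needed for self-renewal of several adult stem cells, had 10.83, 10.52, 10.58 and 10.56 in treated cultures, against 9.82, 10.11, 10.14 and 9.61 in control cultures. All treated samples lay above all controls, and the log2 ratio was 0.71 (SE 0.11, limma adjusted p = 0.00043). Ring1, one of the paired ligases for histone H2A, had 11.42, 11.28, 11.56 and 11.66 in treated cultures, against 11.31, 11.08, 10.75 and 11.19 in control cultures. Its groups overlapped slightly, although the ratio was above 0 on every array. The log2 ratio was 0.40 (SE 0.11, limma adjusted p = 0.0105), and it was 0.26 without array 3. Rnf2, the other ligase, had 13.98, 13.80, 13.93 and 13.94 in treated cultures, against 13.80, 13.76, 13.60 and 13.55 in control cultures. The ranges touched, the log2 ratio was 0.23 (SE 0.079, limma adjusted p = 0.0261), and the call was lost without array 1, 3 or 4 (adjusted p 0.0552, 0.0904 and 0.0940).

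For Ring1, Rnf2 and Bmi1 a second probe did not pass the test. Ring1 had probe log2 ratios of 0.40 and -0.05, Rnf2 of 0.23 and -0.04 and Bmi1 of 0.71 and 0.25, with the brightest probe first. With the scanner's own processed signals, Ring1 and Rnf2 were not called, at 0.22 and 0.061.

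Among the chromodomain proteins that read methylated lysine 27, Cbx6 had 14.56, 14.67, 14.59 and 14.44 in treated cultures, against 13.12, 13.02, 12.75 and 13.10 in control cultures. The groups were far apart, with a log2 ratio of 1.57 (SE 0.092, limma adjusted p = 5.21e-07), a 2.96-fold rise. Its 3 probes gave 1.57, 1.27 and 0.99, all called higher. Cbx2, the Cbx protein tied to sex determination and to chromatin compaction, had 13.79, 13.99, 14.01 and 14.13 in treated cultures, against 14.60, 14.62, 14.64 and 14.68 in control cultures. All treated samples lay below all controls, at a log2 ratio of -0.66 (SE 0.072, limma adjusted p = 3.61e-05). A second Cbx2 probe gave -0.21 and was not called. Cbx7 did not pass the test, at 0.09 (95% interval -0.15 to 0.33). Cbx8 did not pass on its brightest probe, at 0.21 (95% interval -0.06 to 0.48), while its other probe was called higher at 0.97. Set side by side within each array, Cbx6 minus Cbx7 was 1.48 ± 0.16 and Cbx2 minus Cbx8 was -0.87 ± 0.33 in log2 ratio (SD, n = 4 arrays). Both differences had the same sign on 4 of 4 arrays. These were among 12 pairs of related members compared in this way, of which 4 had the same sign on all arrays: these, Hdac7 minus Hdac9 (-1.44) and Ep300 minus Crebbp (0.20). The other 8 had mixed signs, with mean differences from -0.31 for Suv39h1 minus Suv39h2 to 0.25 for Hdac1 minus Hdac2. Ezh1 minus Ezh2 was -0.10 and Phc1 minus Phc2 was -0.02. The pairs were picked by hand, are not all pairs of relatives, and used the brightest probes. A difference that involves Cbx6 or Hdac9 partly restates the large ratio of that member. An exact sign-flip test over 4 arrays cannot go below p = 0.125.

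The polyhomeotic proteins Phc1, Phc2 and Phc3 polymerise and so cluster PRC1. Phc3 had 11.98, 11.72, 11.72 and 11.40 in treated cultures, against 10.49, 10.31, 10.51 and 10.67 in control cultures. The groups did not overlap on this probe, with a log2 ratio of 1.21 (SE 0.12, limma adjusted p = 1.55e-05), and array 4 had the smallest rise. The RefSeq-derived probe gave -0.025, so the rise was seen on 1 of the 2 probes that passed the filter. Phc1 had 14.36, 14.21, 14.33 and 14.37 in treated cultures, against 14.79, 14.68, 14.44 and 14.66 in control cultures. Its groups were separate and the log2 ratio was -0.32 (SE 0.079, limma adjusted p = 0.00522). The other Phc1 probes gave -0.90 and -0.68, both called lower, so the brightest probe showed the smallest fall. Phc2 fell, with a log2 ratio of -0.30 (SE 0.069, limma adjusted p = 0.00372).

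Scmh1, which associates with PRC1 through Phc proteins, had 10.98, 11.17, 11.12 and 10.99 in treated cultures, against 11.55, 11.49, 12.13 and 11.66 in control cultures. Array 3, with the highest control level, had the lowest ratio, and the groups did not overlap. Its mean log2 ratio was -0.64 (SE 0.10, limma adjusted p = 0.000469). Scml2, a PRC1 partner of the male germ line, fell, with a log2 ratio of -0.31 (SE 0.078, limma adjusted p = 0.0057). Its probes gave -0.31, -0.69 and -0.11, and the last was not called.

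**Figure D3:**
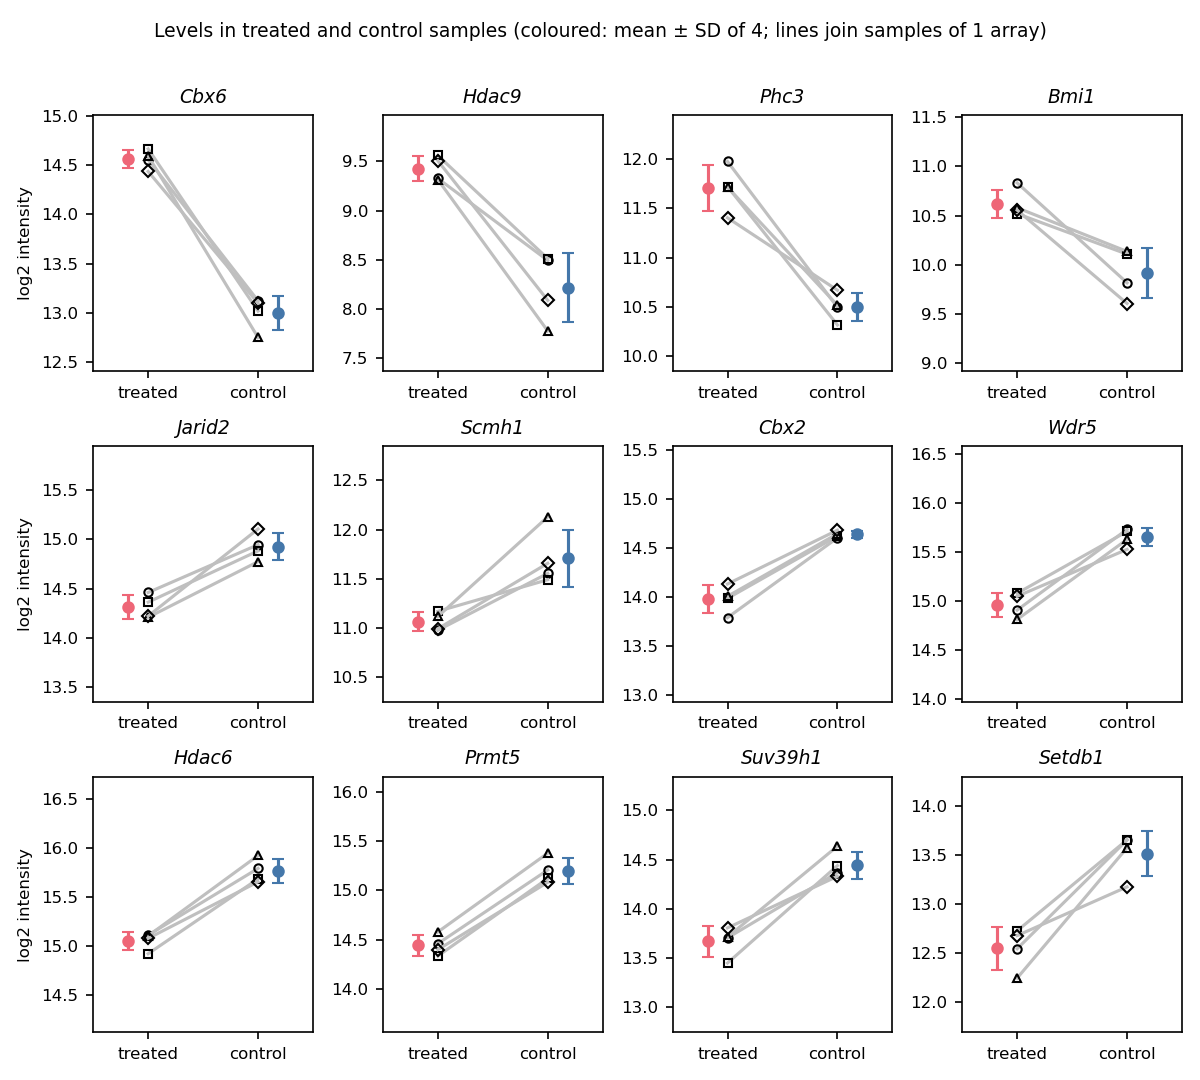
Level (log2 normalized intensity) of 12 members in treated (left) and control (right) samples, with lines joining the samples of 1 array and coloured points for the mean ± SD of 4. Array 1 is a circle, array 2 a square, array 3 a triangle and array 4 a diamond, and every panel spans the same log2 range. The 12 members are those of the 30 with levels printed in the text that were called with the largest absolute log2 ratio, and no panel shows overlap.

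All 3 trithorax members were called, 1 higher and 2 lower, where 68.4% of all genes were called. Wdr5, the adaptor that docks lysine 4 methyltransferases on histone H3, had 14.91, 15.08, 14.81 and 15.05 in treated cultures, against 15.73, 15.71, 15.63 and 15.53 in control cultures. The groups were separate, with a log2 ratio of -0.69 (SE 0.080, limma adjusted p = 5.52e-05). Ash2l, its partner in the same complexes, fell, at -0.26 (SE 0.069, limma adjusted p = 0.0077), with probes at -0.26 and -0.97. Ash1l, a lysine 36 methyltransferase that opposes Polycomb, rose, at 0.20 (SE 0.073, limma adjusted p = 0.0334). Its probes gave 0.20, 0.40 and -0.05, the last not called. The Ash1l call was also lost without array 1 or 2 (adjusted p 0.132 and 0.138), and its ratio was 0.00023 with the scanner's processed signals.

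The lysine 9 methyltransferases of histone H3 had no member that rose. Of the 5, 3 fell (60%, against 30.9% of all genes) and the other 2 did not pass the test. Setdb1, which with Trim28 silences retroelements, had 12.54, 12.73, 12.25 and 12.68 in treated cultures, against 13.65, 13.65, 13.57 and 13.17 in control cultures. The groups were separate on all arrays, with the smallest difference on array 4. Its log2 ratio, -0.96 (SE 0.12, limma adjusted p = 8.6e-05), was the most negative of the set by brightest probe, a 1.95-fold fall. Of its 2 probes 1 passed the filter, and the second Ash2l probe gave -0.97. Suv39h1, which trimethylates lysine 9 at pericentric heterochromatin, had 13.70, 13.45, 13.71 and 13.80 in treated cultures, against 14.37, 14.44, 14.64 and 14.33 in control cultures. Treated samples again lay below all controls, with a log2 ratio of -0.78 (SE 0.090, limma adjusted p = 5.38e-05).

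Suv39h2, the close relative of Suv39h1 that is prominent in testis, had 12.09, 12.23, 12.03 and 12.25 in treated cultures, against 12.76, 12.66, 12.51 and 12.53 in control cultures. The groups did not overlap, and the log2 ratio was -0.47 (SE 0.080, limma adjusted p = 0.000636). All 3 of its probes called a fall, at -0.47, -0.53 and -0.66. The methyltransferases for euchromatin, which work as a pair, were Ehmt1 and Ehmt2. Ehmt1 had 13.92, 13.94, 13.87 and 13.72 in treated cultures, against 13.92, 14.04, 13.98 and 14.15 in control cultures. The groups overlapped, and only array 4 stood clearly below 0. Its log2 ratio was -0.16 (SE 0.085, limma adjusted p = 0.119), with a 95% interval from -0.35 to 0.03. Ehmt2 had 16.34, 16.16, 16.26 and 16.19 in treated cultures, against 16.30, 16.32, 16.44 and 16.39 in control cultures. The groups overlapped here too, with a log2 ratio of -0.12 (SE 0.073, limma adjusted p = 0.157) and a 95% interval from -0.29 to 0.04. Centring each array on its median in place of loess moved Ehmt2 to -0.50 (adjusted p 0.015).

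Of the 11 histone deacetylases, 4 rose, 3 fell and 4 did not pass the test. That is 36.4% higher and 27.3% lower, close to the 37.5% and 30.9% of all genes. The members that rose were Hdac9, Hdac8, Hdac5 and Hdac4, of which all but Hdac8 belong to class IIa, deacetylases that shuttle between nucleus and cytoplasm. Hdac6, Hdac3 and Hdac7 fell, and Hdac7 is itself of class IIa. Class IIa thus had 3 members that rose and 1 that fell.

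Hdac9 had 9.33, 9.56, 9.32 and 9.51 in treated cultures, against 8.49, 8.51, 7.78 and 8.09 in control cultures. The groups were separate, the largest rise was on array 3, and the log2 ratio was 1.21 (SE 0.11, limma adjusted p = 1.34e-05), a 2.31-fold rise on its brightest probe. Of the 4 Hdac9 probes, 2 passed the filter, and the second of these gave 0.17 and was not called. Hdac7 fell, at -0.23 (SE 0.075, limma adjusted p = 0.0205), its probes gave -0.23 and -0.17, and the call was lost without array 1, 3 or 4 (adjusted p between 0.0554 and 0.0750). Within arrays and by brightest probe, Hdac7 minus Hdac9 was -1.44 ± 0.40 in log2 ratio (SD, n = 4 arrays), below 0 on 4 of 4 arrays. Hdac5 rose, at 0.30 (SE 0.074, limma adjusted p = 0.00558), and Hdac4 rose, at 0.22 (SE 0.083, limma adjusted p = 0.0374). The Hdac4 call was lost without array 1, 2 or 3 (adjusted p 0.0574, 0.134 and 0.150). Neither Hdac4 nor Hdac5 was called with the scanner's processed signals, at 0.051 and 0.14.

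Among the nuclear class I enzymes, Hdac8 had 10.21, 10.32, 10.10 and 10.28 in treated cultures, against 9.65, 9.52, 9.75 and 9.64 in control cultures. All treated samples lay above all controls, with a log2 ratio of 0.59 (SE 0.084, limma adjusted p = 0.000216), and its second probe was called higher too. Hdac1, a catalytic subunit of the Sin3 and NuRD corepressors, had 15.37, 15.45, 15.33 and 15.35 in treated cultures, against 15.38, 15.57, 15.55 and 15.32 in control cultures. The groups overlapped and the log2 ratio was -0.08 (SE 0.072, limma adjusted p = 0.348), with a 95% interval from -0.24 to 0.08. Hdac2, which shares those complexes, had 10.46, 10.62, 10.11 and 10.45 in treated cultures, against 11.09, 11.18, 10.50 and 10.19 in control cultures. On array 4 the treated sample was the higher of the pair, while on the other arrays it was lower. The log2 ratio was -0.33 (SE 0.13, limma adjusted p = 0.0502), and without array 4 it was -0.53 (adjusted p 0.000823). Hdac3, the enzyme of the NCoR corepressor, had 13.70, 13.78, 13.67 and 13.91 in treated cultures, against 14.01, 14.03, 13.98 and 14.04 in control cultures. The groups were separate by a small gap, with a log2 ratio of -0.25 (SE 0.069, limma adjusted p = 0.00986).

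Hdac6, which deacetylates tubulin in the cytoplasm, had 15.11, 14.92, 15.11 and 15.08 in treated cultures, against 15.79, 15.69, 15.92 and 15.66 in control cultures. The groups were far from overlapping, and the log2 ratio was -0.71 (SE 0.071, limma adjusted p = 2.05e-05). Hdac11, the class IV enzyme, did not pass the test at -0.16 (95% interval -0.32 to 0.01). Sirt1, the deacetylase that consumes NAD, did not pass at 0.10 (95% interval -0.11 to 0.30).

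Neither acetyltransferase passed the test. Ep300 had 10.90, 10.96, 10.68 and 10.59 in treated cultures, against 10.70, 10.56, 10.48 and 10.75 in control cultures. The groups overlapped, with array 4 opposite to the others. Its log2 ratio was 0.16 (SE 0.093, limma adjusted p = 0.151), and without array 4 it was 0.27 (adjusted p 0.0205). A second Ep300 probe had the opposite sign, at -0.26 (adjusted p 0.0311). Crebbp, its close relative, had 13.68, 13.62, 13.54 and 13.61 in treated cultures, against 13.80, 13.53, 13.36 and 13.91 in control cultures. The sign differed between arrays, and the log2 ratio was -0.04 (SE 0.089, limma adjusted p = 0.704), with a 95% interval from -0.24 to 0.16.

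Of the 3 arginine methyltransferases, 2 fell (66.7%, against 30.9% of all genes). Prmt5, which makes symmetric dimethylarginine and is required in mouse germ cells, had 14.46, 14.33, 14.58 and 14.40 in treated cultures, against 15.21, 15.12, 15.38 and 15.08 in control cultures. The ratio hardly varied between arrays, from -0.80 to -0.69, and averaged -0.76 (SE 0.066, limma adjusted p = 8.05e-06). Carm1, a coactivator that methylates histone H3, had 13.06, 13.06, 13.21 and 13.11 in treated cultures, against 13.38, 13.36, 13.83 and 13.46 in control cultures. The groups were separate, with a log2 ratio of -0.40 (SE 0.078, limma adjusted p = 0.00143). Its probes gave -0.40 and -0.19, the second not called. Prmt1, the main source of asymmetric dimethylarginine, had 14.09, 14.07, 15.14 and 14.78 in treated cultures, against 15.33, 13.67, 14.17 and 14.14 in control cultures. On array 1 the control sample was far above the treated one, and on the other arrays it was below. The log2 ratio was 0.19 (SE 0.29, limma adjusted p = 0.575) over all arrays and 0.67 (adjusted p 0.00112) without array 1.

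**Figure D4:**
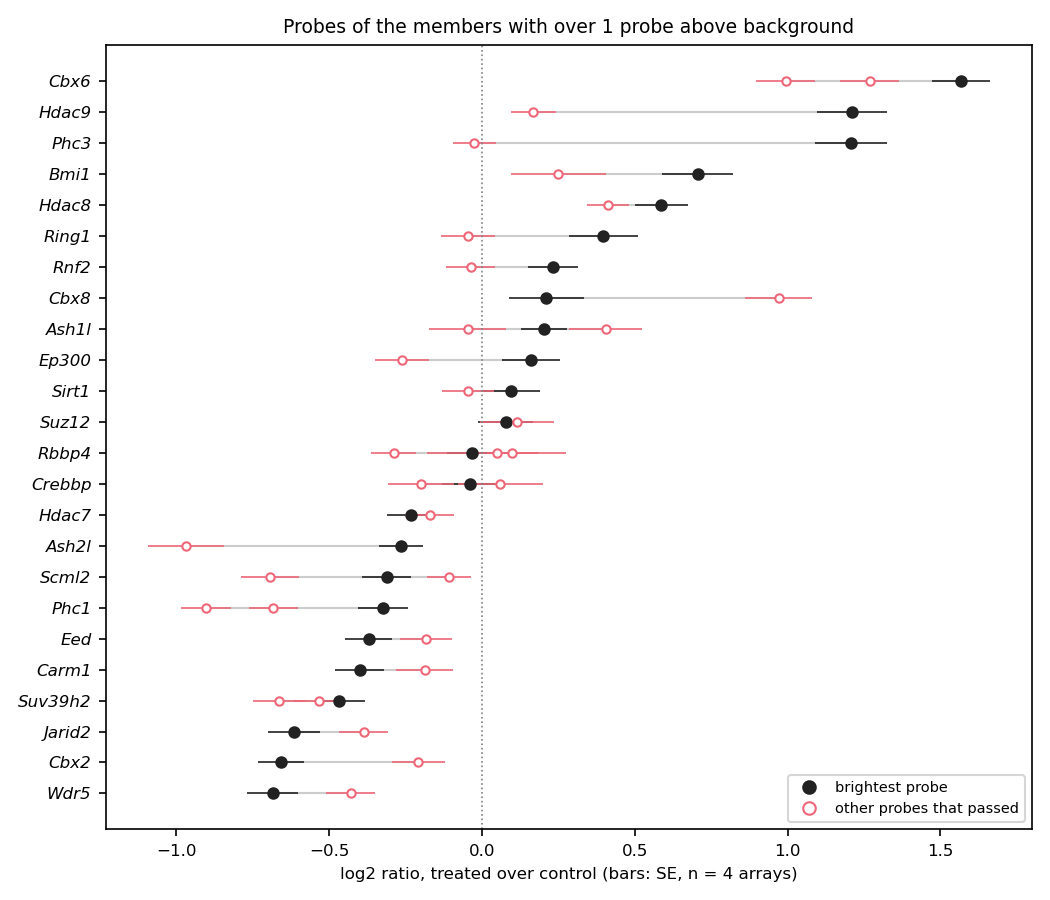
Log2 ratio of treated over control for each probe of the 24 members with over 1 probe above background (filled: brightest probe, open: other probes, bars: SE over 4 arrays). Phc3, Hdac9 and Cbx8 have the widest gaps, and no gene has probes called in opposite directions.

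Of 89 probes of the members, 75 passed the filter. In 14 of the 24 members with over 1 passing probe the calls of the probes differed, always between called and not called and in 0 cases between higher and lower. Beyond the genes above, Eed had probe log2 ratios of -0.37 and -0.18, Ep300 of 0.16 and -0.26, Rbbp4 of -0.03, 0.10, 0.05 and -0.29, of which the last was called lower, and Cbx8 of 0.21 and 0.97. The second Eed probe and the Rbbp4 probe at 0.048 lie on the strand opposite to the RefSeq-derived probes of their genes, and what transcript they read was not tested. The members' ratios correlated between pairs of arrays with a Pearson r between 0.73 and 0.90 across the 43 members, which are not independent of each other. Their median SD between arrays was 0.18, against 0.15 over all genes. Centring each array on its median in place of loess ended the calls of Ezh1, Ezh2, Rnf2, Ash1l, Hdac3, Hdac4, Hdac5 and Hdac7, with adjusted p-values from 0.113 to 0.341. Of the members called both ways, the same choice moved Phc2 (to -0.65), Scml2 (to -0.58) and Ash2l (to -0.41) by over 1.5 times. With the scanner's processed signals, Ezh1 had -0.60, Ezh2 -0.44, Hdac7 -0.42 and Hdac3 -0.41, all still called, while after median centring of these signals Phc2 was not called (adjusted p 0.0691).

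**Figure D5:**
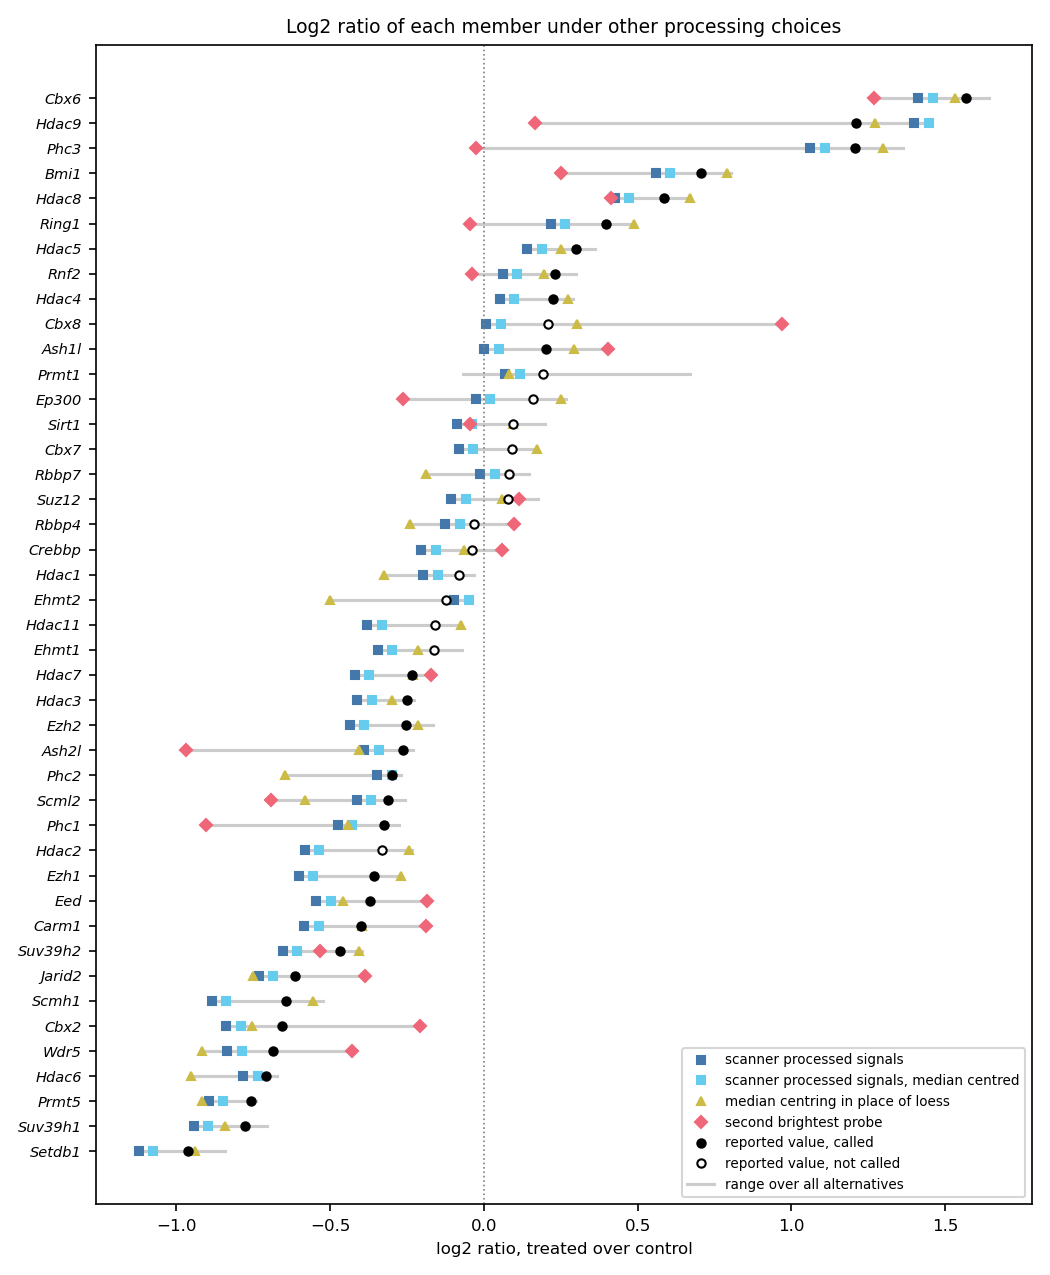
Reported log2 ratio of each member (black, filled where called), its range over all processing alternatives (grey line) and its value under 4 of them (coloured). The scanner's processed signals (blue squares) lie below the reported value for most members, and the second brightest probe (red diamonds) puts Ring1, Rnf2 and Phc3 just below 0.

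Counted by level and not by test, 7 members had every treated sample above every control and 16 had every treated sample below. Over all genes, 34.1% were separate with treated samples above and 27.1% with treated samples below. The members that fell thus made up 37.2% of the set by this count, and those that rose 16.3%.

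Genes that work with these enzymes were listed as 140 further genes, of which 136 were tested: 43 rose, 58 fell, and the median log2 ratio was -0.10. These are 31.6% higher, against 37.5% of all genes, and 42.7% lower, against 30.9% of all genes. Of 21 further Polycomb and deubiquitinase genes, 6 rose and 12 fell (28.6% and 57.1%). Phf19, which guides PRC2 to methylated lysine 36, fell, with a log2 ratio of -1.28. Asxl1 and Bap1, the subunits of the deubiquitinase that removes the PRC1 mark, both fell, at -0.79 for Asxl1 and -0.77 for Bap1. The DNA-binding factor Yy1 (log2 ratio 0.50) and Pcgf3 (0.49), a relative of Bmi1, rose.

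Of 24 further methyltransferases and partners for lysines 4, 36, 79 of histone H3 and lysine 20 of histone H4, 7 rose and 11 fell. These are 29.2% and 45.8%, against 37.5% and 30.9% of all genes. The lysine 4 enzymes Kmt2b and Kmt2a fell, with log2 ratios of -0.76 for Kmt2b and -0.74 for Kmt2a, and so did the lysine 36 enzyme Nsd2, at -0.72. Setd7 (1.72), Kmt2e (1.03) and Setd1b (0.97) rose. Of 9 readers and partners of lysine 9 methylation, 2 rose and 5 fell (22.2% and 55.6%). Trim28, the corepressor that brings Setdb1 to retroelements, fell at -0.71, as did Prdm2 at -0.79 and Uhrf1, a factor of maintenance DNA methylation, at -0.79. The heterochromatin proteins Cbx3 and Cbx1 rose, at 0.35 for Cbx3 and 0.29 for Cbx1. Treated and control levels overlapped for both, and Cbx1 had a log2 ratio of -0.082 on array 4.

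Of 23 histone demethylases, 10 rose and 8 fell (43.5% and 34.8%, against 37.5% and 30.9% of all genes). Kdm4c (1.25) and Kdm4b (0.87), which act on trimethylated lysine 9, and Phf8 (0.98) had the largest rises. Kdm4d (-0.62), of the same family, fell, as did Riox1 (-0.73) and Kdm8 (-0.64). Of 26 partners of deacetylases and other sirtuins, 9 rose and 9 fell (34.6% each). The CoREST scaffolds Rcor1 (1.54) and Rcor3 (1.40) and the NuRD helicase Chd3 (1.00) had the largest rises. The Sin3 scaffold Sin3a (-0.80), the NuRD subunit Gatad2a (-0.61) and Sirt6 (-0.54) had the largest falls.

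Of 26 genes listed with the other acetyltransferases, 8 rose and 9 fell (30.8% and 34.6%, against 37.5% and 30.9% of all genes). The coactivator Ncoa1 (1.53) rose most, followed by Ing1 (0.53) and Ing4 (0.47), which are not acetyltransferases themselves. Kat2a, the acetyltransferase of the SAGA complex, fell most, at -1.15, followed by Kat7 (-0.76) and Elp3 (-0.52). Of 7 other arginine methyltransferase genes, 1 rose (14.3%), Prmt2 at 0.24, and 4 fell (57.1%). Wdr77, the obligate partner of Prmt5, fell at -0.55, next to Prmt7 (-0.69) and Prmt3 (-0.50).

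Promoter windows of the members were read from RefSeq on GRCm38.p6, from 250 bases before to 50 after the annotated start. They covered 37 of the 43 members with 47 windows. The windows of the members with the largest rise and the largest fall, and that of Ezh2, are printed to show what these sequences look like. Capitals mark an E-box (CACGTG) in Cbx6 and an E2F motif (TTTGGCGC or TTTCCCGC) in Ezh2, and Setdb1 held none of the motifs searched.
Cbx6, chr15:79834284-79834583 (- strand): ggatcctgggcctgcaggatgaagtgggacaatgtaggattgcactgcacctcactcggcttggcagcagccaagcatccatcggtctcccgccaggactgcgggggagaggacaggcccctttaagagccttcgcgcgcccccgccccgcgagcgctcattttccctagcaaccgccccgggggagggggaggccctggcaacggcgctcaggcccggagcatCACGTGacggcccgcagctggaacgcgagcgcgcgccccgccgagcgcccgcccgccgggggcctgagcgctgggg
Ezh2, chr6:47594981-47595280 (- strand): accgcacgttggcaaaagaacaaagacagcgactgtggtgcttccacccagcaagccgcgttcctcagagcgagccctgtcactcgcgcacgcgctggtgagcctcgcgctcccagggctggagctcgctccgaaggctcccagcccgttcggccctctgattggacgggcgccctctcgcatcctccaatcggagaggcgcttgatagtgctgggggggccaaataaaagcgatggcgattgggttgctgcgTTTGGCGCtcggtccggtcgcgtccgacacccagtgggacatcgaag
Setdb1, chr3:95357153-95357452 (- strand): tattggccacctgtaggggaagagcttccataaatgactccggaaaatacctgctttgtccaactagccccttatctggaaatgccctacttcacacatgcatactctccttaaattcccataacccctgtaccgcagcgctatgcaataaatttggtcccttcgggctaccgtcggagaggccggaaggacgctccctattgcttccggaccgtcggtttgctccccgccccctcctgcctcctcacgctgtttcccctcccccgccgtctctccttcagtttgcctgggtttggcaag

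Exact matches were searched on both strands, and the motifs do not contain one another. The E-box was in 11 of 47 member windows, 23.4%, against 7.15% of 32851 windows of all genes. The members' windows were richer in CpG, with a median of 24 per window against 7, and the E-box itself holds a CpG. Among windows with at least 20 CpG, 7 of 30 member windows (23.3%) and 11.6% of all windows had an E-box. By call, 4 of 10 windows of members that rose, 1 of 23 of members that fell and 6 of 14 of members not called held one. In that order the windows belonged to 9, 15 and 13 genes, with a median of 20.5, 20 and 35 CpG. Windows of the same gene are not independent. The E2F motif was in 2 member windows (Ezh2 and Suz12; 4.26%) against 1.56% of all, and a FOXO motif (GTAAACA) in 2 (Eed and Hdac7; 4.26%) against 3.65%. An ETS motif (CCGGAAGT) was in 0 of 47 windows, against 3.89% of all. These are counts of letters, with no test, and no factor's binding was measured.

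Marker genes were measured on the same arrays, where 37.5% of all genes tested rose and 30.9% fell. A bulk sample cannot tell fewer cells of a type from less RNA per cell. Zbtb16 was not analysed here; of 9 other germ cell markers, all well above background on 4 of 4 arrays, 0 rose and 6 fell (median log2 ratio -0.37). Their summed linear intensity was 209405 to 227594 in treated samples, against 285787 to 304128 in control samples. Sertoli cell markers rose in 10 of 10 cases (median 2.00), with sums of 481539 to 514911 in treated samples, against 113969 to 120334 in control samples. Among them, Amh was well above background in 3 of 4 control samples and Fshr in 1 of 4. Fshr thus passed the dim-probe filter only through the treated samples, where it was high. Fibroblast and peritubular markers rose in 9 of 10 (median 1.56), with sums of 1562830 to 1689940 in treated samples, against 586097 to 656504 in control samples. Macrophage markers fell in 9 of 10 (median -1.03), with sums of 52587 to 65455 in treated samples, against 131548 to 156183 in control samples. Of 8 endothelial markers, 2 rose and 5 fell (median -0.28), with sums of 11225 to 14402 in treated samples, against 13584 to 15984 in control samples. Of 16 replication and proliferation genes, 0 rose and 13 fell (median -0.56). Their sums were 627909 to 669518 in treated samples, against 942446 to 1012860 in control samples.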

How the data were processed

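Total RNA of 4 treated and 4 control cultures was hybridised to 4 two-colour arrays, and the array is the pair. Agilent Feature Extraction 10.5.1.1 read the spots, per the submitters' processing notes, and all arrays shared 1 slide and 1 scan, per the file headers. The deposited spot signals are linear intensity values with local background. That software also subtracted background and normalized dyes, per the file headers, to give the deposited processed signals, again intensity values. Its deposited log10 ratio is red over green. The series value table holds log2 values deposited by the authors, with scale, centring and direction not stated. They equalled log2 of green over red processed signal for 100% of 40929 probes within 0.001, uncentred, with column medians of -0.26, 0.012, 0.11 and -0.058.

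Mean signals were corrected by normexp (offset 50) and normalized by loess within arrays, without control spots. Spots with a mark for non-uniformity or for disagreement with their copies (141 to 171 an array) were dropped, and 0 were saturated. Of 41174 probes, 27729 were well above background in 1 channel on at least 3 of 4 arrays, and the brightest stood for each of 18454 genes. Probes well above background numbered 26613 to 28495 in treated samples and 25532 to 27891 in control samples. Names were updated through RefSeq (GRCm38.p6), 25097 probes by accession and 7973 by symbol, and 8104 kept the file's name. The mean log2 ratio was compared with 0 in limma 3.58.1 (lmFit, eBayes; R 4.3.3, package data.table in version 1.17.8), two-sided, adjusted by Benjamini-Hochberg over all genes and called under 0.05. The SE is that of this fit, and the number of arrays limits the precision. Ratios are relative to each array's central trend. Levels per channel are log2 values after loess and Aquantile scaling. The procedure was tested on simulated data.

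The members and all gene lists were chosen with earlier results of these data known. Levels on every array are given for 20 core enzymes and subunits and for the 10 other called members with the largest absolute log2 ratio. Of each further list up to 3 called genes with the largest rise and 3 with the largest fall are named. A gene that this rule takes is not reported here. All probe values are given where probes' calls differ. Alternatives covered normalization, how background was handled, the dim-probe filter, the choice of probe, the spot statistic, the variance model, the pairing and each array left out.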

Additional observations from a re-analysis of the deposited data

Results flagged for a closer look

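For each member the 4 log2 ratios were searched for 1 array far from the others, by the gap to the nearest value as a share of the whole range (Dixon's test at the 95% level). Chance marks about 1 in 20 such groups, and 2 of 43 members were marked. Hdac5 had a log2 ratio of 0.11 on array 4, below its 3 other values of 0.34 to 0.38. Carm1 had a log2 ratio of -0.62 on array 3, below its 3 other values of -0.35 to -0.30. Both members kept their sign on all 4 arrays.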

How the results depend on the processing

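Of the 29 called members, 13 kept their call under every alternative. Another 15, Ring1 and Rnf2 among them, lost it under at least 1, and Phc3 was not called on its second brightest probe, at -0.025. Leaving out 1 array gave 8 to 10 members higher and 17 to 19 lower, with 6448 to 6749 genes higher and 4998 to 5388 lower. Centring on the median without loess gave 6 of 43 members higher and 16 lower. Of all 18454 genes it gave 5503 higher and 3575 lower. The scanner's processed signals gave 5 members higher and 22 lower, with 5598 genes higher and 7855 lower. After median centring of these signals, 5 members were higher and 20 lower, with 5445 genes higher and 6120 lower. Processed signals put the median of all genes at -0.12, against 0.02, and rises at 41.6% of called genes, against 54.8%. For the members, that share was 18.5% (20% median-centred), against 34.5%. With processed signals, Hdac2, Hdac11 and Ehmt1 were called lower, at -0.58, -0.38 and -0.34. The second brightest probe, for the 24 members and 6607 genes that had one, called 4 members higher and 7 lower, and 2480 genes higher and 1780 lower, from fewer genes tested. On that probe Ring1 (-0.046), Rnf2 (-0.037) and Phc3 (-0.025) lay just below 0 and were not called (limma adjusted p 0.68, 0.722 and 0.795). Ep300, not called on its brightest probe, was called lower there, at -0.26. The cause of these changes was not tested. The array pairs the samples. Without this replicate block, 10 members were higher and 17 lower, and 6681 genes were higher and 5470 lower. The members whose calls were lost were Ezh2 (adjusted p 0.0885) and Hdac7 (0.0966).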
